A study of Mus musculus with 12 samples.

Results

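The nuclear-encoded subunits of the mitochondrial respiratory chain and ATP synthase were examined in the visceral white fat of FVB/N mice. The genes were chosen by symbol alone (Ndufa, Ndufb, Ndufc, Ndufs and Ndufv genes, Sdha to Sdhd, Uqcr genes, Cox4 to Cox8 genes and Atp5 genes, leaving out the brown fat and muscle isoforms Cox8b and Cox7a1), with no measured value used. This gave 82 of the 50559 gene symbols counted: 36 of complex I, 4 of complex II, 8 of complex III, 17 of complex IV and 17 of complex V, with Ndufa4 placed in complex IV, where its protein resides despite its name. The filter on low counts passed 80 of them and left out Cox7b2, with 2 counts over all 12 libraries, and Cox8c, with 1 count.

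The study crossed genotype with diet, with 3 libraries in each of 4 groups. Mice called wild type here carried alphaMHC tTA, a transactivator driven by a heart muscle promoter, and transgenic mice carried alphaMHC tTA x alphaMHC TGFb, in which that promoter drives TGF-b1 in the heart. Both genotypes therefore carried the driver, and the transgene was directed to another organ than the one sampled. Control groups ate chow with 17% of calories from fat (3.1 kcal per g), and high-fat groups ate a diet with 60% of calories from fat (5.21 kcal per g) from 8 to 10 weeks of age for 2 or 6 weeks. For the control groups the labels give no age. The labels also give neither which duration a library came from nor whether replicates were separate mice. The p-values therefore rest on library-to-library variation that may be partly technical.

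The respiratory chain passes electrons from NADH (complex I) and succinate (complex II) through complex III to oxygen at complex IV. Complexes I, III and IV pump protons across the inner mitochondrial membrane, and complex V, the ATP synthase, uses the resulting gradient to make ATP. Most subunits are encoded in the nucleus and a few in mitochondrial DNA. White adipocytes store lipid and hold fewer mitochondria than brown adipocytes, in which uncoupling protein Ucp1 lets protons return without making ATP.

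Libraries held 20101240 to 21337312 counts assigned to genes, and values are given as CPM, counts scaled by the library total and TMM factors. The 8 adipocyte markers, among them Adipoq, Plin1 and Fabp4, summed to between 24620 and 36070 CPM in every library, as the labelled tissue would require. Some libraries stood apart by markers of other cells. The 12 skeletal muscle markers summed to 563 CPM in wild-type high-fat replicate 3 and 854 CPM in transgenic control replicate 3, against 7.20 to 87.4 CPM elsewhere. The 8 epithelial markers summed to 397 CPM in transgenic control replicate 2 and 95.6 CPM in wild-type control replicate 1, against 12.7 to 43.0 CPM elsewhere. The 6 brown and beige adipocyte markers summed to 635 CPM in transgenic high-fat replicate 1, against 10.5 to 218 CPM elsewhere. The liver markers summed to 305 CPM in wild-type high-fat replicate 2, against 24.7 to 62.3 CPM elsewhere. The 5 Schwann cell markers summed to 516 CPM in wild-type control replicate 1, against 220 to 364 CPM elsewhere.

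Summed over the 80 tested subunit genes, wild-type tissue held 14190, 15400 and 12190 CPM on the control diet (replicates 1, 2 and 3) and 9482, 10140 and 11570 CPM on the high-fat diet. Transgenic tissue held 16160, 15290 and 12640 CPM on the control diet and 15740, 11570 and 11490 CPM on the high-fat diet. The wild-type groups did not overlap, and the high-fat mean was 25.3% below the control mean (10400 ± 1068 against 13930 ± 1621 CPM, SD, n = 3). The transgenic groups overlapped through high-fat replicate 1, and their means differed by 12.04% (12930 ± 2431 against 14700 ± 1833 CPM, SD, n = 3). Because these are bulk samples, fewer cells of a type and less RNA per cell cannot be told apart.

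**Figure D1:**
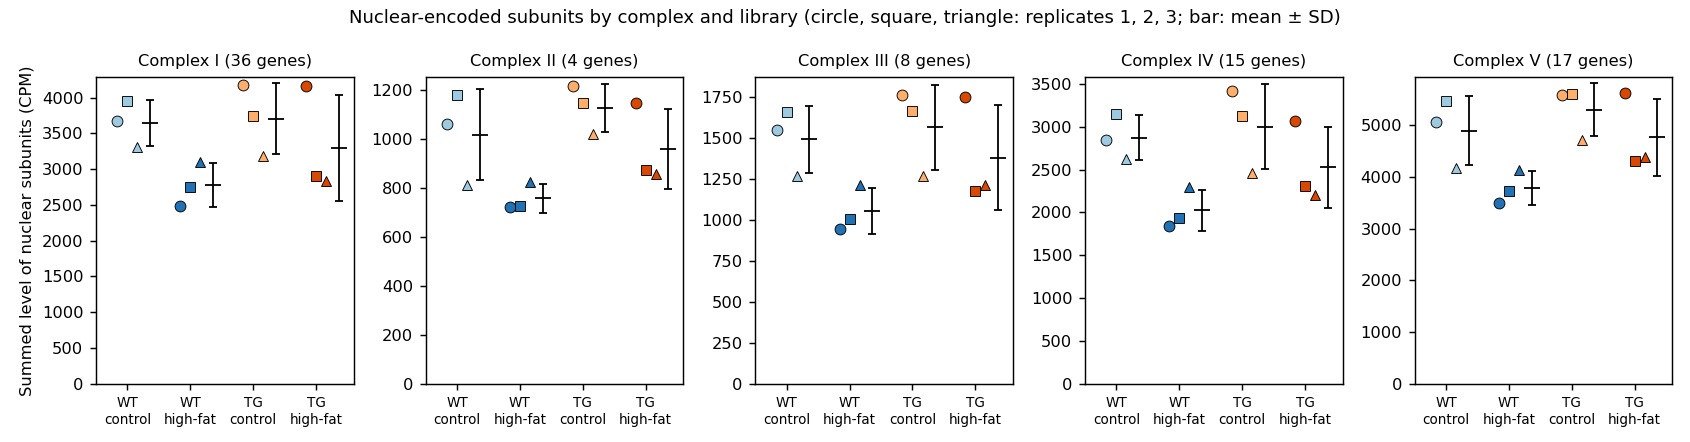
Summed CPM (vertical axis) of the tested nuclear subunits of complexes I to V in wild-type (WT) and transgenic (TG) tissue on the control and high-fat diets; each symbol is a library and bars are the mean ± SD of 3. In complexes I, III, IV and V no wild-type high-fat library reaches the lowest wild-type control library, and transgenic high-fat replicate 1 (circle) lies above the other two of its group in all 5 complexes.

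All 5 complexes were lower on the high-fat diet in wild-type tissue. The high-fat group mean was lower by 23.95% for complex I, 25.6% for complex II, 29.3% for complex III, 29.5% for complex IV and 22.7% for complex V. In complex II the groups met: control replicate 3 held 813 CPM and high-fat replicate 3 held 827 CPM. In transgenic tissue the same differences were 10.8%, 14.96%, 11.9%, 15.8% and 10.1%, and in each complex high-fat replicate 1 exceeded at least 1 control library. These sums are descriptions and carry no test.

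The diet comparison was therefore made gene by gene, with edgeR's quasi-likelihood test on all 12 libraries and Benjamini-Hochberg adjustment over 16550 genes. Taken over both genotypes, 22 of 80 subunit genes fell and 1 rose at an adjusted p below 0.05, against 7.98% of all tested genes called lower and 9.43% called higher. The 22 were 27.5% of the subunit genes, and their fitted levels were 15.6% to 40.8% lower on the high-fat diet. The median log2 fold change was -0.30 over the 80 genes and -0.02 over all genes tested, and 75 of 80 values were below 0. The genes that fell were 9 of 36 in complex I, 1 of 4 in complex II, 3 of 8 in complex III, 3 of 15 in complex IV and 6 of 17 in complex V.

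**Figure D2:**
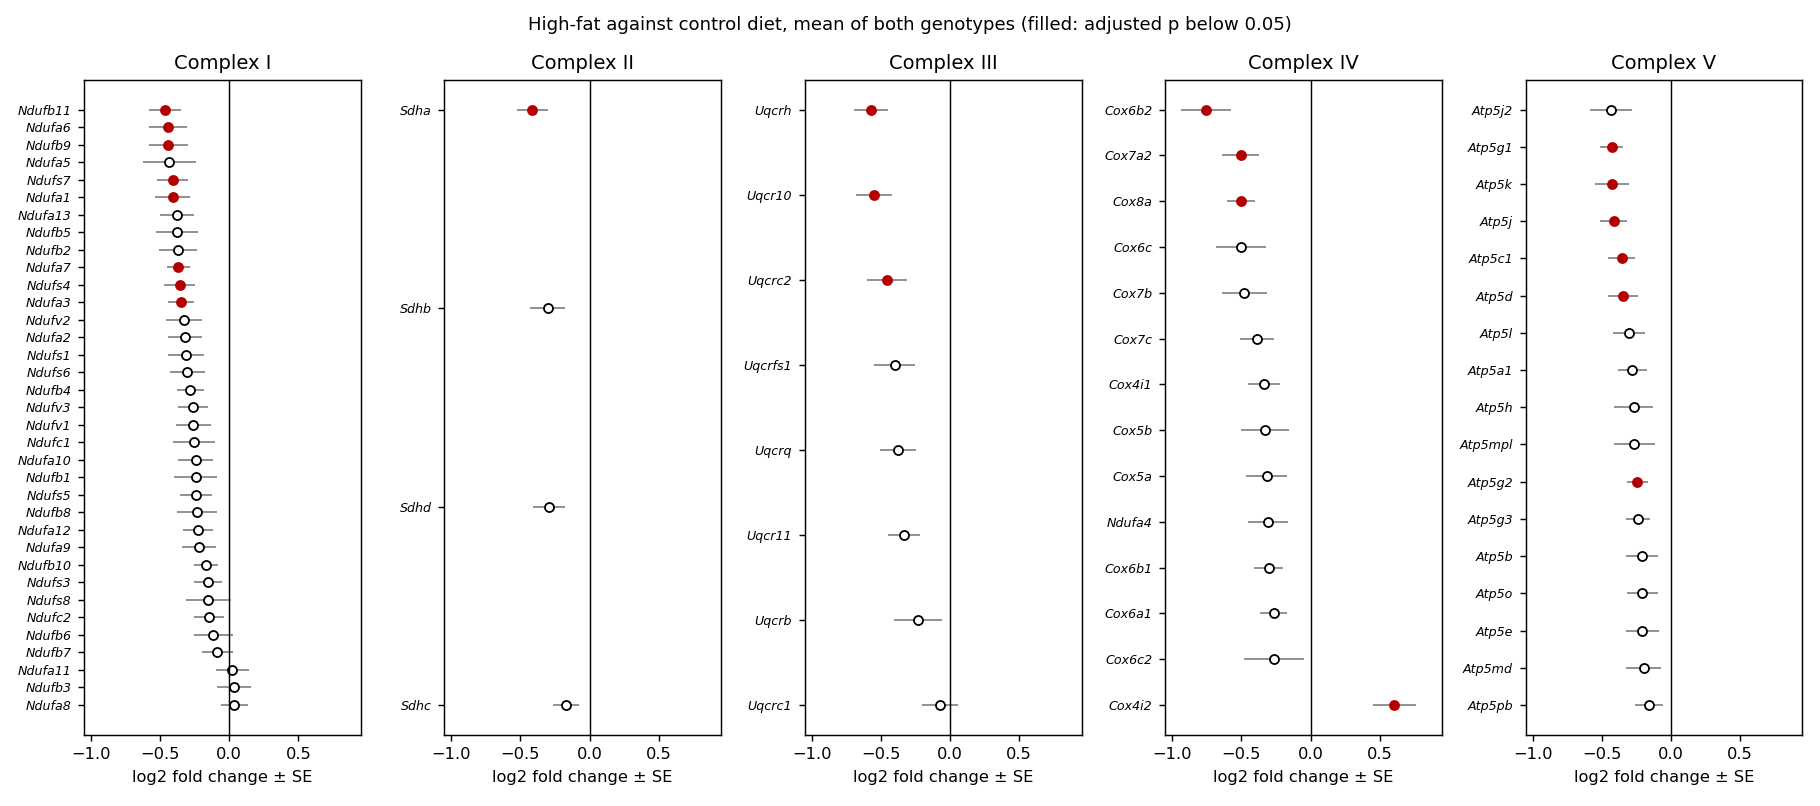
Log2 fold change (horizontal axis, with SE) of the high-fat against the control diet over both genotypes for 78 tested subunit genes, by complex, Cox6a2 not drawn; filled points have an adjusted p below 0.05. The filled points lie below 0 except that of Cox4i2.

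The promoters of 4 of these genes are shown because the genes fell in 4 different complexes and differ in the motifs they hold. Sequences are those of RefSeq on GRCm38.p6, 5′ to 3′ on the gene's strand, from 250 bases before a listed transcript start to 50 bases from it on. For Cox8a, Uqcrh and Sdha that start is the start of the annotated gene, and for Atp5g1 it lies 63 bases inside it, so that the Atp5g1 window is shifted into the gene. Capitals mark matches, on either strand, to the motif of the NRF1 transcription factor (GCGCANGCG) or of the ETS family, to which GABP belongs (CCGGAAG). Cox8a lies on the minus strand of chromosome 19 (chr19:7217567-7217866), Uqcrh on that of chromosome 4 (chr4:116075021-116075320), Sdha on that of chromosome 13 (chr13:74350191-74350490) and Atp5g1 on that of chromosome 11 (chr11:96075582-96075881).
Cox8a: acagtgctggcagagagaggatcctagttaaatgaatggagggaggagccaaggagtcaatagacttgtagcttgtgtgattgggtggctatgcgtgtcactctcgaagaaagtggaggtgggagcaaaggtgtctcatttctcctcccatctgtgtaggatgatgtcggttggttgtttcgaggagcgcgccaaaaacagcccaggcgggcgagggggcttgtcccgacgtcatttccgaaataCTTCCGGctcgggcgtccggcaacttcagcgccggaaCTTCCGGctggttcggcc
Uqcrh: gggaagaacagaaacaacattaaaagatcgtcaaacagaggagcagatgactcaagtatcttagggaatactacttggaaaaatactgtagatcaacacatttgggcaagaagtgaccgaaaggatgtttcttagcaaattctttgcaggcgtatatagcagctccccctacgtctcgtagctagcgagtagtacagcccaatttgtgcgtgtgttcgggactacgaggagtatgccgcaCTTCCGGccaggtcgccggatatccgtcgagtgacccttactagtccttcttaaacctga
Sdha: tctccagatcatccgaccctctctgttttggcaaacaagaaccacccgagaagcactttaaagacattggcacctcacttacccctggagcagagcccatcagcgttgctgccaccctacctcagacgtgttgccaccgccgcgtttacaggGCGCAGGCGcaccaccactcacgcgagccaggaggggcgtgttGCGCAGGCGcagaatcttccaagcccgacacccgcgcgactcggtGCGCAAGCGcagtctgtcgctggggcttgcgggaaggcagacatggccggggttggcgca
Atp5g1: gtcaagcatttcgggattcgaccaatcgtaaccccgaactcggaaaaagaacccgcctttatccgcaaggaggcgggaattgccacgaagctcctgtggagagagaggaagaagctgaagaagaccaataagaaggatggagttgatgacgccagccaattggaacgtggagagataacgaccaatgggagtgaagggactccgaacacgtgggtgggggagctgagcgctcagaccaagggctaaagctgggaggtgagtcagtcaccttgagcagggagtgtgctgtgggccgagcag
The Cox8a window held 2 ETS matches and the Uqcrh window held 1, all on the opposite strand. The Sdha window held 3 NRF1 matches, and the Atp5g1 window held no match to the 4 motifs searched, which says nothing of the bases beyond it.

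Of the 82 genes, 66 had a promoter in the RefSeq table, and for 12 of these the window's start was not that of the annotated gene. An NRF1 match lay in 19 of them (28.8%), against 6.47% of 27025 promoters of the same length and 8.83% of the 17491 of protein-coding genes. An ETS match lay in 16 (24.2%), against 9.12% of all promoters and 11.9% of those of protein-coding genes. The YY1 motif (AAGATGGCG) matched in 6 (9.09%, against 1.495% and 1.94%) and the estrogen-related receptor motif (TCAAGGTCA) in 2 (3.03%, against 0.407% and 0.332%). The median share of G and C was 58.5% in these subunit promoters, 52.7% in all promoters and 56.3% in those of protein-coding genes. The letters CG, which the NRF1, ETS and YY1 motifs all contain, differed more, with medians of 19.5, 7 and 13 per window. The part of base composition in the motif shares was not tested. Among the 19 promoters of genes that fell, 4 had an NRF1 and 3 an ETS match, and among the 46 of genes tested and not called, 15 and 13 did. A match is a run of letters in this window and does not show binding.

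Complex I, NADH dehydrogenase, had 36 genes tested and 9 that fell (Ndufa7, Ndufb11, Ndufa3, Ndufs7 and Ndufb9 among them), with a median log2 fold change of -0.27 over both genotypes. Ndufa7, an accessory subunit, measured 125, 133 and 132 CPM in wild-type controls and 86.5, 91.0 and 106 CPM on the high-fat diet. In transgenic tissue it measured 143, 124 and 114 CPM on the control diet and 119, 95.3 and 101 CPM on the high-fat diet. The wild-type groups of Ndufa7 were apart and the transgenic groups overlapped, with a log2 fold change over both genotypes of -0.37 (SE 0.08, adjusted p = 0.0114, edgeR). Ndufb11, an accessory subunit of the membrane arm encoded on the X chromosome, fell by 0.47 on the log2 scale (SE 0.11, adjusted p = 0.0164, edgeR). It shares 12.9% of its exon bases with Rbm10, so its count may hold reads of that gene or lack reads of its own.

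Among the core subunits of complex I, which carry the electron path, Ndufs7 passed the test, while Ndufs1 and Ndufv1 did not. Ndufs7 averaged 116 ± 6.63 CPM in wild-type controls and 79.5 ± 10.1 CPM on the high-fat diet (SD, n = 3), with a log2 fold change over both genotypes of -0.41 (SE 0.11, adjusted p = 0.0285, edgeR). Ndufs1, the largest core subunit, had a log2 fold change of -0.31 (SE 0.13, adjusted p = 0.114, edgeR). Ndufb9, an accessory subunit, had the highest level per length of the complex, at 277 CPM per kb of transcript over the 12 libraries. It shares 28.6% of its exon bases with Gm49356, so its count may hold reads of that gene or lack reads of its own. Ndufb9 fell by 0.44 on the log2 scale (SE 0.14, adjusted p = 0.0470, edgeR). Only 3 complex I genes had a value above 0, Ndufa8, Ndufb3 and Ndufa11, with log2 fold changes of 0.04, 0.03 and 0.02 that did not pass the test.

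Complex II, succinate dehydrogenase, is encoded wholly in the nucleus and belongs to the citric acid cycle as well. Sdha, the subunit that holds the flavin and oxidises succinate, measured 480, 553 and 381 CPM in wild-type controls and 334, 328 and 365 CPM on the high-fat diet. Its transgenic values were 583, 569 and 485 CPM on the control diet and 510, 395 and 364 CPM on the high-fat diet. High-fat libraries were below all control libraries in wild-type tissue, and in transgenic tissue replicate 1 on the high-fat diet lay within the control range. Sdha had a log2 fold change of -0.42 (SE 0.11, adjusted p = 0.0249, edgeR). The iron-sulfur subunit Sdhb (-0.30, adjusted p = 0.115) and the membrane anchors Sdhd (-0.29, adjusted p = 0.0944) and Sdhc (-0.17, adjusted p = 0.216) did not pass edgeR's test.

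Complex III, cytochrome bc1, had the largest share of genes that fell, 3 of 8 (Uqcrh, Uqcr10 and Uqcrc2), and the lowest median of the 5 complexes, -0.39. Uqcrh, the hinge protein that contacts cytochrome c1, measured 120, 128 and 121 CPM in wild-type controls and 83.8, 79.7 and 91.7 CPM on the high-fat diet. In transgenic tissue it measured 158, 143 and 99.98 CPM on the control diet and 112, 76.6 and 74.8 CPM on the high-fat diet. Control replicate 3 lay below high-fat replicate 1 there. The log2 fold change of Uqcrh was -0.57 (SE 0.12, adjusted p = 0.00979, edgeR), and the values within wild-type and transgenic tissue, -0.53 and -0.61, were close to each other.

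Uqcr10, a small accessory subunit, measured 155, 173 and 147 CPM in wild-type controls and 87.9, 97.2 and 123.2 CPM on the high-fat diet. In transgenic tissue it measured 204, 184 and 126 CPM on the control diet and 149, 111 and 111 CPM on the high-fat diet. Its log2 fold change was -0.55 (SE 0.13, adjusted p = 0.0146, edgeR). The Rieske subunit gene Uqcrfs1 (-0.40, adjusted p = 0.0837) and Uqcr11, which had the highest level per length of the complex at 379 CPM per kb (-0.33, adjusted p = 0.0625), did not pass the test. The core gene Uqcrc1 had the value nearest 0 of the complex, -0.07 (SE 0.13, adjusted p = 0.734, edgeR).

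Complex IV, cytochrome c oxidase, is the complex whose nuclear subunits exist most often as tissue isoforms. Cox8a, the widely expressed isoform of the smallest subunit, had the highest mean level per length of all the subunit genes over the 12 libraries, 955 CPM per kb. In the transgenic high-fat group it had 875 CPM per kb, below the 899 CPM per kb of Atp5b. It measured 593, 682 and 589 CPM in wild-type controls and 393, 350 and 427 CPM on the high-fat diet. In transgenic tissue it measured 698, 638 and 487 CPM on the control diet and 519, 482 and 442 CPM on the high-fat diet. Cox8a fell by 0.50 on the log2 scale over both genotypes (SE 0.10, adjusted p = 0.00626, edgeR). Its partner isoform Cox8c was not detectable beyond 1 count.

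The isoform pair Cox4i1 and Cox4i2 showed values of opposite sign. Cox4i1, the common form, averaged 468 ± 40.7 and 351 ± 48.3 CPM in wild-type tissue and 498 ± 54.1 and 416 ± 93.3 CPM in transgenic tissue on the control and high-fat diets (SD, n = 3). Its log2 fold change of -0.34 missed the threshold (SE 0.11, adjusted p = 0.0630, edgeR), and it shares 20.1% of its exon bases with Emc8. Cox4i2, a form known from lung and from its response to low oxygen, is expressed at a far lower level. It measured 3.10, 3.91 and 2.68 CPM in wild-type controls, 3.97, 3.87 and 3.85 CPM in wild-type high-fat libraries, 3.12, 2.04 and 2.57 CPM in transgenic controls and 4.12, 5.85 and 4.93 CPM in transgenic high-fat libraries. Cox4i2 was the 1 subunit gene that rose, by 0.61 on the log2 scale over both genotypes (SE 0.16, adjusted p = 0.0198, edgeR). Ndufa4l2, a paralog of Ndufa4 that the symbol rule does not cover and that is also known from low oxygen, rose as well, by 0.91 (SE 0.19, adjusted p = 0.00774, edgeR). It is 1 of 6 related genes listed outside the rule. Of the 5 of these that were tested, 1 rose and 0 fell over both genotypes, with a median of -0.15. A link of Cox4i2 and Ndufa4l2 to low oxygen in these mice was not tested.

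Cox6b2, known mainly from testis, measured 3.63, 5.13 and 5.59 CPM in wild-type controls and 2.22, 2.94 and 3.66 CPM on the high-fat diet, so that 1 library of each group overlapped. In transgenic tissue it measured 6.59, 4.92 and 5.91 CPM on the control diet and 3.74, 3.83 and 2.34 CPM on the high-fat diet, with no overlap. Cox6b2 fell by 0.76 over both genotypes (SE 0.18, adjusted p = 0.0152, edgeR), whereas its common counterpart Cox6b1 had a value of -0.30 (adjusted p = 0.0706). Cox7a2, the liver-type form, fell by 0.51 (SE 0.14, adjusted p = 0.0250, edgeR), and Cox7b had a value of -0.48 (adjusted p = 0.0617). Its partner Cox7b2 was at 0 to 1 counts in every library.

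Cox6a2, the heart and skeletal muscle isoform, was high in the libraries with high muscle markers. It measured 7.84 CPM in wild-type high-fat replicate 3 and 12.8 CPM in transgenic control replicate 3, and 0 to 1.30 CPM in the other 10. Its log2 fold change over both genotypes was 0.81 (SE 1.06, adjusted p = 0.638, edgeR) and became -0.40 without wild-type high-fat replicate 3. Cox6a1, the common form, measured 363, 450 and 371 CPM in wild-type controls and 269, 285 and 298 CPM on the high-fat diet. In transgenic tissue it measured 415, 437 and 346 CPM on the control diet and 435, 325 and 391 CPM on the high-fat diet, so that those groups overlapped. Cox6a1 was not among the genes called over both genotypes. Cox6c2, annotated as a pseudogene, had 1.66 to 4.06 CPM and a value of -0.27 (adjusted p = 0.432).

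**Figure D3:**
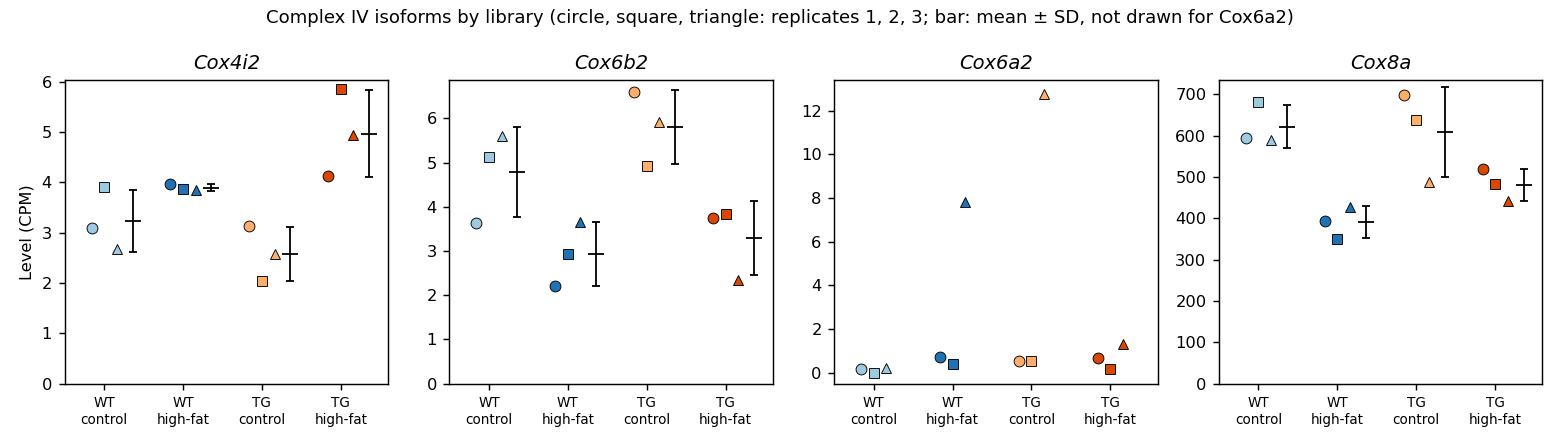
CPM (vertical axis) of the complex IV genes Cox4i2, Cox6b2, Cox6a2 and Cox8a in wild-type (WT) and transgenic (TG) tissue on the control and high-fat diets; each symbol is a library, and bars are the mean ± SD of 3, not drawn for Cox6a2. Cox4i2 lies highest in the transgenic high-fat libraries (4.12 to 5.85 CPM), Cox8a lies lower in the wild-type high-fat than in the wild-type control libraries, and Cox6a2 is high in 1 wild-type high-fat and 1 transgenic control library (7.84 and 12.8 CPM).

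Complex V, the ATP synthase, had 17 genes tested and 6 that fell (Atp5g1, Atp5j, Atp5c1, Atp5k, Atp5d and Atp5g2), and all 17 values were below 0. Subunit c, which forms the rotating ring in the membrane, is encoded by Atp5g1, Atp5g2 and Atp5g3, whose mature proteins are identical. Atp5g1 measured 46.5, 53.2 and 50.8 CPM in wild-type controls and 32.0, 39.1 and 45.1 CPM on the high-fat diet. In transgenic tissue it measured 59.5, 55.2 and 57.9 CPM on the control diet and 39.3, 43.4 and 40.7 CPM on the high-fat diet. Each high-fat library lay below each control library, which held for 1 of 80 subunit genes against 2.79% of all tested genes. Atp5g1 fell by 0.43 (SE 0.08, adjusted p = 0.00485, edgeR), the smallest p of the 80.

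Atp5g2 fell by 0.25 (SE 0.08, adjusted p = 0.0436, edgeR), and the most abundant of the 3 by CPM, Atp5g3, had a value of -0.24 (SE 0.09, adjusted p = 0.0823). Atp5j, coupling factor 6 of the stalk, fell by 0.41 (SE 0.10, adjusted p = 0.0143, edgeR). It shares 21.1% of its exon bases with Gabpa, so its count may hold reads of that gene or lack reads of its own. Atp5b, the catalytic beta subunit, had the highest level per length of the complex, 829 CPM per kb. It averaged 1577 ± 297 and 1240 ± 92.7 CPM in wild-type tissue and 1810 ± 178 and 1723 ± 278 CPM in transgenic tissue on the control and high-fat diets (SD, n = 3). Its log2 fold change of -0.21 did not pass the test (SE 0.12, adjusted p = 0.234, edgeR).

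Within wild-type tissue 1 subunit gene fell and 0 rose, against 0.453% of all tested genes called lower and 0.683% called higher. The gene was Cox8a, with a log2 fold change of -0.67 (SE 0.14, adjusted p = 0.0448, edgeR). This call was kept in 1 of 12 fits that each left out a library, with adjusted p-values up to 0.189. At an unadjusted p below 0.05, 48 of 80 genes (60%) were lower and 1 was higher, against 9.20% and 8.88% of all tested genes. The high-fat libraries lay wholly below the control libraries for 48 of 80 genes, 22 of them in complex I, 1 in complex II, 4 in complex III, 8 in complex IV and 13 in complex V. That was so for 12.4% of all tested genes. The median log2 fold change was -0.42, against -0.01 over all genes, and 76 of 80 values were below 0. The authors' deposited table for this comparison called 32 of 80 subunit genes lower and 0 higher, against 2.92% and 3.06% of its genes.

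Within transgenic tissue 1 subunit gene fell and 1 rose, against 3.34% of all tested genes called lower and 5.39% called higher. Atp5g1 fell by 0.48 (SE 0.11, adjusted p = 0.0246, edgeR) and Cox4i2 rose by 0.94 (SE 0.22, adjusted p = 0.0232, edgeR). Both calls were kept in 9 of 12 fits with a library left out. Atp5g1 lost its call without transgenic control replicate 1 or high-fat replicate 1 or 3, and Cox4i2 without control replicate 2 or high-fat replicate 2 or 3, with adjusted p-values up to 0.0866 and 0.0698. At an unadjusted p below 0.05, 10 of 80 genes (12.5%) were lower and 1 was higher, against 12.4% and 13.5% of all tested genes. The high-fat libraries lay wholly below the control libraries for 2 of 80 genes and wholly above for 1. That was so for 13.5% and 14.4% of all tested genes. The median log2 fold change was -0.20, against -0.02 over all genes, with 72 of 80 values below 0. This median moved to -0.38 without transgenic high-fat replicate 1 and to -0.10 without transgenic control replicate 1. The authors' deposited table called 1 of 79 subunit genes higher and 2 lower, against 5.93% and 3.95% of its genes.

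Of the 23 calls over both genotypes, 9 were kept in all 12 fits with a library left out: Atp5g1, Atp5j, Cox4i2, Cox6b2, Cox8a, Ndufa7, Ndufb11, Uqcr10 and Uqcrh. The other 14 were kept in 2 to 5 of those fits, with adjusted p-values up to 0.124. The count of calls was 48 without transgenic high-fat replicate 1 and 37 without transgenic control replicate 3. It was 24 without wild-type control replicate 3, 25 without wild-type high-fat replicate 3, and 9 to 11 when any of the other 8 libraries was left out. Without both muscle-rich libraries 40 genes fell and 0 rose, and without both libraries rich in epithelial transcripts 6 fell and 0 rose.

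Effects of the transgene did not reach the threshold for any subunit gene by edgeR with the filter on low counts. On the control diet 0 of 80 were called, against 0.0363% of all tested genes, and 1 had an unadjusted p below 0.05, against 5.78% of all tested genes lower and 5.20% higher at that p. With no filter on low counts 1 was called on that diet, Cox6a2 (log2 fold change 4.95, adjusted p = 0.0216, edgeR), the gene that was high in muscle-rich transgenic control replicate 3. The median was 0.05 and changed sign, to -0.09, without transgenic control replicate 1. On the high-fat diet 0 of 80 were called, against 0% of all tested genes, and 13 (16.2%) were higher and 0 lower at an unadjusted p below 0.05, against 3.75% and 2.98% of all tested genes. DESeq2 and limma-voom on the 12 libraries also called 0 on either diet. Over both diets 0 were called, against 0% of all genes, with 11 higher at an unadjusted p below 0.05, against 6.24% of all tested genes.

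On the high-fat diet 77 of 80 values were above 0, with a median of 0.25 against 0.00 over all genes, and the summed level was 24.3% higher in transgenic than in wild-type tissue. The transgenic libraries lay wholly above the wild-type libraries for 15 of 80 genes, against 7.52% of all tested genes. Sdhc, a membrane anchor of complex II named here after its values were seen, measured 124, 127 and 140 CPM in wild-type and 199, 167 and 182 CPM in transgenic high-fat libraries. Those groups of Sdhc did not overlap, and the log2 fold change was 0.49 (SE 0.13, adjusted p = 0.712, edgeR). The authors' deposited table gave Sdhc a log2 fold change of 0.48 with an adjusted p of 0.0149, its single subunit call in this comparison. Without transgenic high-fat replicate 1 the median over the 80 genes was 0.07 and 50 of 80 values were above 0.

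The difference between the diet effects of the genotypes was tested as an interaction. The number of subunit genes called was 0 of 80 by edgeR, DESeq2 and limma-voom, against 0% of all tested genes by edgeR. At an unadjusted p below 0.05, 2 were above and 1 was below 0, against 3.03% and 2.58% of all tested genes. With no filter on low counts edgeR called Cox6a2 (-6.99, adjusted p = 0.0284), which was high in the 2 muscle-rich libraries. The median was 0.20 against 0.01 over all genes, with 73 values above 0, and it was 0.03 without transgenic high-fat replicate 1. A smaller diet effect in transgenic tissue was thus not shown for single subunit genes in the filtered data, and the median over the 80 rested on that library.

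**Figure D4:**
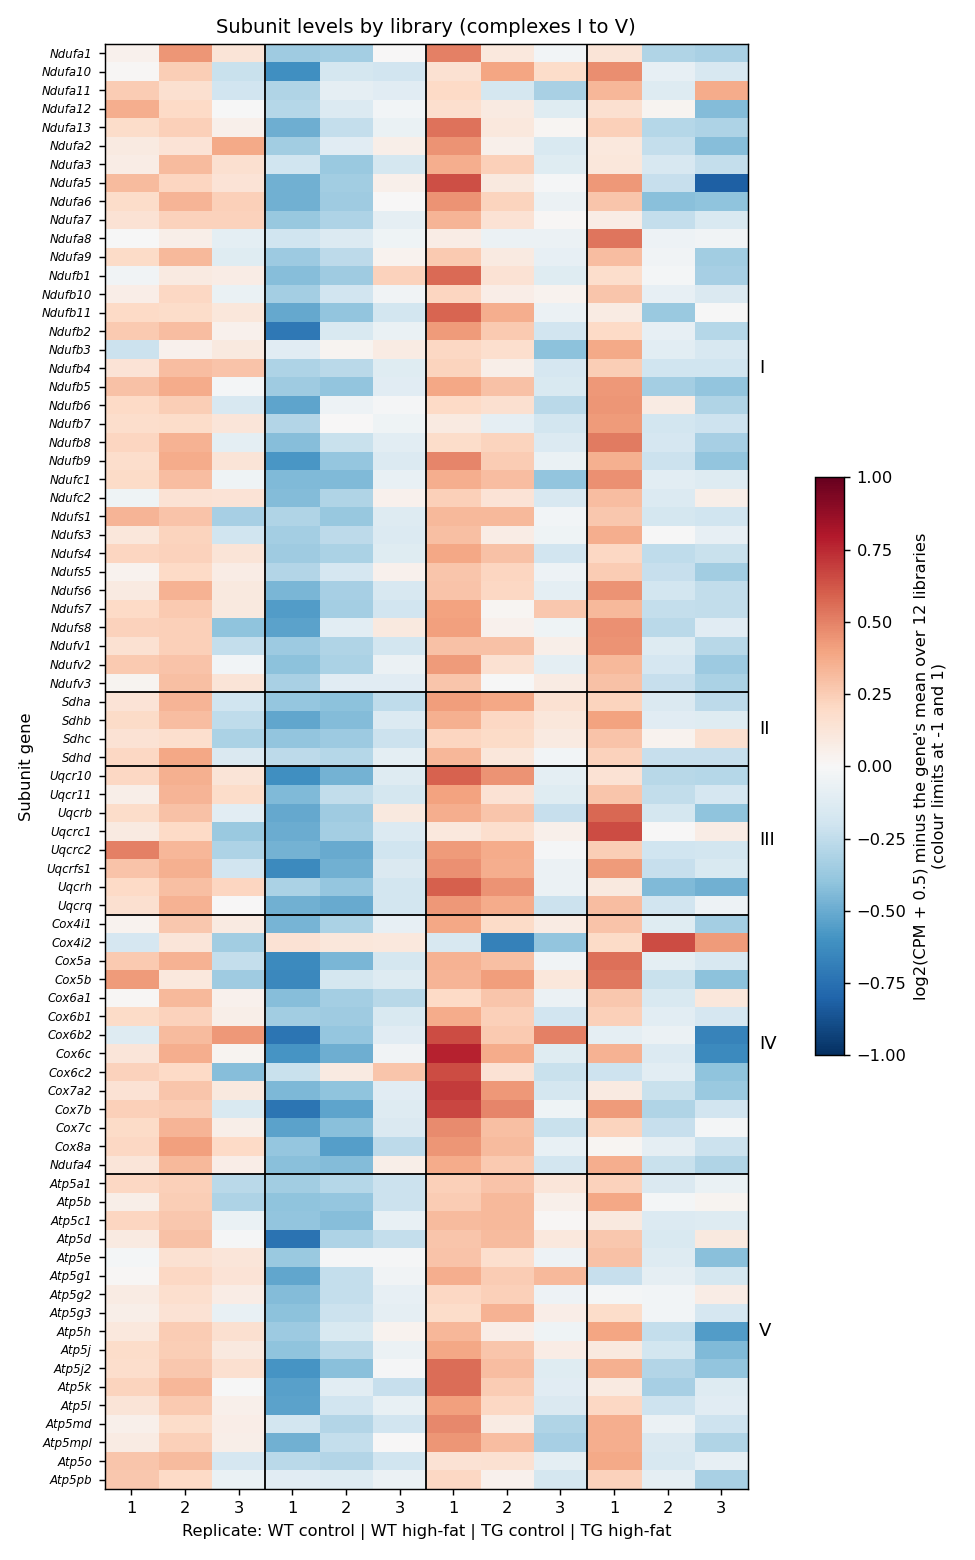
Level of 78 subunit genes (rows, grouped by complex, Cox6a2 not drawn) in the 12 libraries (columns), as log2(CPM + 0.5) minus the gene's mean, with colours limited at -1 and 1. Wild-type high-fat replicate 1 was the lowest library for 51 of the 80 genes, and transgenic control replicate 1 and transgenic high-fat replicate 1 were the highest for 38 and 24.

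Some libraries were extreme for many subunit genes at once. Wild-type high-fat replicate 1 was the lowest of the 12 libraries for 51 of 80 genes, wild-type high-fat replicate 2 for 12 and transgenic high-fat replicate 3 for 11. Transgenic control replicate 1 was the highest for 38 genes and transgenic high-fat replicate 1 for 24. That last library also had the highest brown and beige marker sum, with Ucp1 at 227 CPM, Cidea at 243 CPM and Cox8b, the brown fat and heart isoform of Cox8, at 143.5 CPM.

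The brown and beige marker sums ran from 14.6 to 214 CPM in wild-type controls, 10.5 to 134 CPM in wild-type high-fat, 36.6 to 218 CPM in transgenic control and 91.0 to 635 CPM in transgenic high-fat libraries. Ucp1 ranged from 0.0879 CPM in wild-type high-fat replicate 2 to that 227 CPM, and Cox7a1 was at 0 to 0.814 CPM throughout. Of these 6 markers 5 were tested and 0 changed with diet over both genotypes by edgeR, with Cox8b at -0.54 (SE 0.53, adjusted p = 0.513). Within wild-type tissue all 5 had values below 0, with a median log2 fold change of -1.23. Within transgenic tissue all 5 had values above 0, with a median of 1.21, and 0 were called in either genotype. The sums overlapped between diets in both genotypes. In transgenic tissue high-fat replicates 2 and 3 (91.0 and 114 CPM) lay below control replicates 1 and 2 (169 and 218 CPM). In wild-type tissue high-fat replicate 3 (134 CPM) lay above control replicate 3 (14.6 CPM). Markers of mesothelium, the lining of visceral fat, summed to 507 to 820 and 580 to 628 CPM in wild-type and transgenic controls. They summed to 322 to 425 and 111 to 328 CPM in the high-fat groups, and 4 of 6 fell. Macrophage markers, of which 2 of 8 rose, summed to 793 to 970 and 854 to 1008 CPM in wild-type control and high-fat tissue. In transgenic tissue they summed to 648 to 690 and 801 to 1132 CPM. Of the epithelial markers 5 of 8 fell, and of the skeletal muscle markers 0 of 9 tested changed. Within wild-type and transgenic tissue the muscle markers had median log2 fold changes of 4.80 and -3.89, again with 0 called. The muscle-rich libraries were wild-type high-fat replicate 3 and transgenic control replicate 3. Of the erythroid markers 3 of 5 and of the Schwann cell markers 1 of 5 fell, the Schwann cell sum being highest in wild-type control replicate 1. Of the lymphocyte and liver markers 2 of 6 and 2 of 5 rose, the liver sum being highest in wild-type high-fat replicate 2. Of the 8 adipocyte markers Lep rose and Cfd fell. The sum of the 8 ran from 25550 to 33240 CPM in wild-type controls and 24620 to 28640 CPM on the high-fat diet. In transgenic tissue it ran from 30160 to 36070 CPM and 25230 to 27000 CPM, without overlap. Cfd alone averaged 11550 and 4213 CPM in the transgenic control and high-fat groups. The counts of markers that rose or fell are over both genotypes, where 7.98% of all tested genes were called lower and 9.43% higher. The part of these cell types in the subunit results was not tested.

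**Figure D5:**
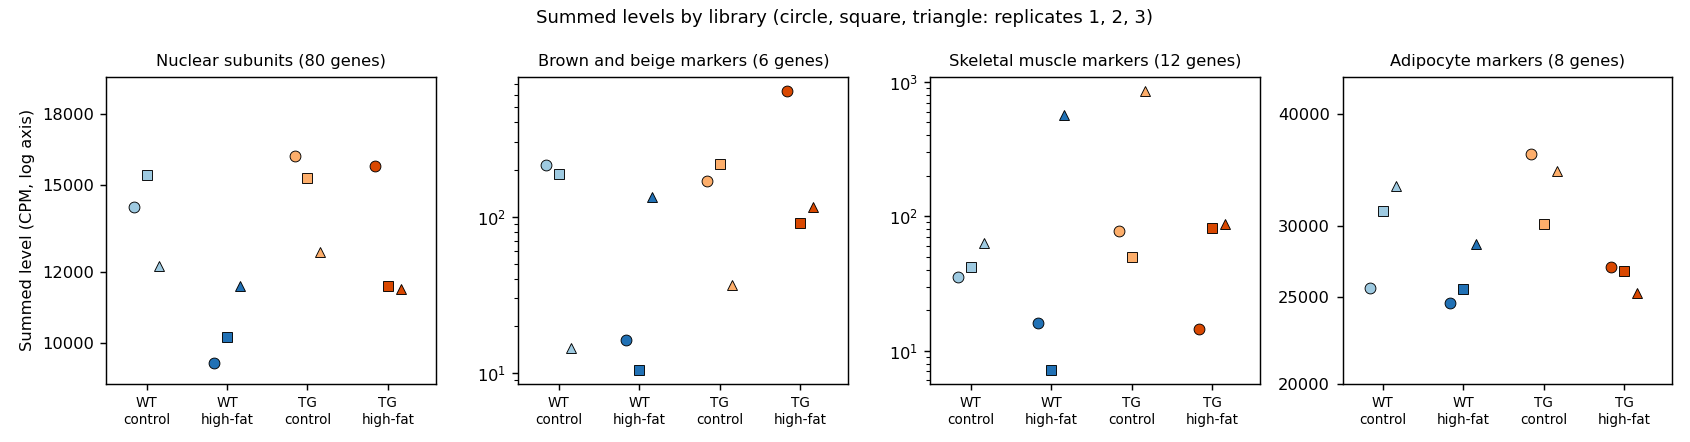
Summed CPM (vertical axes, logarithmic, not starting at 0) by library of the 80 nuclear subunit genes and of brown and beige, skeletal muscle and adipocyte markers in the 4 groups; each symbol is a library. Transgenic high-fat replicate 1 has the highest brown and beige sum (635 CPM) and the highest subunit sum of its group, and wild-type high-fat replicate 3 and transgenic control replicate 3 have the highest skeletal muscle sums (563 and 854 CPM).

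The subunits encoded in mitochondrial DNA complete complexes I, III, IV and V. All 13 had values below 0 over both genotypes, with a median of -0.38, and 1 fell (7.69%, against 7.98% of all tested genes): COX3, by 1.10 on the log2 scale (SE 0.29, adjusted p = 0.0236, edgeR). Their sum ran from 42570 CPM in wild-type high-fat replicate 2 to 125300 CPM in transgenic control replicate 2, and all 4 groups overlapped. COX3 held 30.0 to 170 CPM over the libraries, against 15710 to 45100 CPM for COX1. Reads aligned to several places were not counted, and their part in the level and fall of COX3 was not tested.

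The related gene lists are to be read against the same 7.98% of all tested genes called lower over both genotypes. Of the complex I assembly genes 3 of 15 fell, among them Ndufaf3 by 0.35 (SE 0.08, adjusted p = 0.00994, edgeR), and of those for complexes II and III 3 of 10, among them Sdhaf2 by 0.27 (SE 0.06, adjusted p = 0.0129). Of the complex IV assembly genes 2 of 18 (11.1%) fell, with Surf1 lower by 0.33 (SE 0.07, adjusted p = 0.0110, edgeR), and of those for complex V 1 of 3, Tmem70. Of 19 genes for electron carriers and their synthesis 4 fell and 1 rose. Sqor, which passes electrons from sulfide to coenzyme Q, fell by 0.69 (SE 0.11, adjusted p = 0.00197, edgeR), and the gene of cytochrome c, Cycs, had a value of -0.20 (adjusted p = 0.385).

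Mitochondrial ribosomal protein genes had 19 of 75 lower (25.3%, median -0.18), citric acid cycle genes 2 of 16 (12.5%) and import and carrier genes 4 of 20 (20%). Among the carriers, the ADP/ATP exchangers Slc25a5 and Slc25a4 fell by 0.47 and 0.34 (adjusted p = 0.0187 and 0.0197, edgeR). By edgeR 0 of 18 regulators of mitochondrial biogenesis passed the test. At an unadjusted p below 0.05, 4 (22.2%) were higher and 2 (11.1%) lower, against 16.1% and 16.2% of all tested genes. The coactivator gene Ppargc1a had a value of -0.22 (SE 0.30, adjusted p = 0.651), Esrra -0.16 (adjusted p = 0.363), Nrf1 -0.08 (adjusted p = 0.499), Gabpa -0.03 (adjusted p = 0.774) and Tfam -0.14 (adjusted p = 0.361). Ppargc1b averaged 8.48 ± 0.519 and 8.15 ± 0.260 CPM in wild-type and 13.3 ± 2.18 and 12.7 ± 3.32 CPM in transgenic tissue on the control and high-fat diets (SD, n = 3). Within each diet its wild-type libraries lay below its transgenic ones, and the transgene effect had an adjusted p of 0.231 on the control and 0.712 on the high-fat diet (edgeR).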

How the data were processed

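Visceral white adipose tissue RNA was sequenced in 12 libraries; sample titles gave the 4 groups of 3. The authors deposited whole-number read counts per gene; the submitters' processing notes name the mm10 build and HISAT2 2.2.0, with HTSeq 2.0 and DESeq2 1.32.0. For the annotation and the strand setting, nothing is stated in those sources. The authors also deposited DESeq2 tables of 4 comparisons, of which the log2 fold change and the adjusted p-value per gene were read. Summary entries of unassigned reads, 16.8% to 21.0% of reads, of which reads aligned to several places were 6.72% to 11.8%, stayed out of totals and tests. Gene totals were 20101240 to 21337312 counts per library.

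The main test was edgeR 4.0.16 in R 4.3.3, after filterByExpr (minimum count 10, minimum total 15) had kept 16550 genes. It scaled by TMM and fitted group means over 12 libraries with 8 residual degrees of freedom, using quasi-likelihood F tests (biological coefficient of variation 20.1%). Adjustment followed Benjamini and Hochberg, and genes were called below 0.05. Standard errors are the log2 fold change divided by the square root of F. Comparisons were diet within each genotype and over both, transgene within each diet and over both, and their interaction; the comparisons share control libraries. Fits were run on simulated counts of independent genes whose changes were larger than those of the subunit genes called in the main test. Calls of this size, in genes that move together, were therefore not checked. Coordinates and promoters are from RefSeq on GRCm38.p6, the assembly that mm10 denotes, and matched 82 symbols. Transcript lengths were found for 80 symbols in the GENCODE annotation, and the annotated length of Atp5g1 makes its level per length uncertain. Of the subunit genes 16 share over 10% of exon bases with another gene.

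The symbol rule for the subunit genes used no measured value, but it, the other lists and the tests were set with earlier results of these data known. Genes are named by a rule: up to 8 called subunit genes with the smallest p in each comparison, the 2 with the smallest p and the 1 with the highest level per length in each complex, isoform pairs, genes that failed the filter, selected regulators, and up to 2 genes with the smallest p of each other list. Other genes, such as the remaining called ones, core subunits and Sdhc, were chosen after their values were seen. The values of 1 subunit gene are not reported here, and the plots of single genes leave it out. Alternatives were DESeq2 1.42.0 and limma-voom (limma 3.58.1) on all libraries, RLE size factors, library totals alone, totals without mitochondrial genes, no filter, the 6 libraries of a comparison alone, a replicate block, and leaving out libraries.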

Additional observations from a re-analysis of the deposited data

How the results depend on the processing

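The medians over the 80 subunit genes kept their direction or stayed within the spread between libraries under every alternative run. The numbers of genes called moved more. By DESeq2, 11 were called for diet in wild-type tissue, 5 in transgenic tissue and 36 over both genotypes; by limma-voom, 11 and 42 in wild-type tissue and over both. With no filter the counts were 5 for diet in wild-type tissue, 1 for the transgene on the control diet and 1 for the interaction. With the 6 libraries of a comparison alone they were 2 in wild-type and 1 in transgenic tissue. Without both muscle-rich libraries they were 0 in wild-type tissue, 5 in transgenic tissue and 40 over both, and without both epithelium-rich libraries 0, 0 and 6. Leaving out each library in turn gave 0 to 2 calls in wild-type tissue, 0 to 7 in transgenic tissue, 9 to 48 over both genotypes and 0 in the other comparisons. Over the same fits the medians ran from -0.51 to -0.33 in wild-type tissue, -0.38 to -0.10 in transgenic tissue, -0.39 to -0.25 over both genotypes, 0.03 to 0.32 for the interaction, -0.09 to 0.16 for the transgene on the control diet, 0.07 to 0.36 on the high-fat diet and 0.05 to 0.20 over both diets. The cause was not tested.

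Single genes that changed sign were Cox6a1 for the transgene on the control diet, from 0.01 to -0.05, -0.03, -0.02 and -0.060 without wild-type control replicate 1 or 3 or transgenic control replicate 1 or 2 respectively, and to -0.12 without both epithelium-rich libraries; Uqcrc1 in the same comparison, from 0.12 to -0.038 without wild-type control replicate 3 (range over fits with a library left out -0.038 to 0.23); and Cox6a2 for diet over both genotypes, to -0.40 without wild-type high-fat replicate 3 (range -0.40 to 2.37). With the replicate number as a block, 0 genes were called for diet in wild-type tissue, 2 in transgenic tissue and 17 over both genotypes. The labels do not say whether the numbers mark a shared litter or day, and correlations between libraries cannot settle it. Correlations of same-numbered libraries' deviations ran from -0.11 to 0.27 over 18 pairs, and 4 of 12 libraries correlated best with their own number. The value of 0.27 was that of wild-type high-fat replicate 3 with transgenic control replicate 3, the muscle-rich libraries. Cox7b2 and Cox8c, at 2 counts and 1 count over all libraries, lay below the filter on low counts. With 3 libraries a group, outlying single values were not tested.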
